A study of Homo sapiens with 32 samples.

Results

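The comparison of RKO METTL3 knockdown with RKO control rested on 2 deposited peak lists, 1 per group, of the 12 in the series. Peaks on chromosomes 1 to 22 and X were taken with their strand, and same-strand peaks that overlapped were merged into regions. This gave 34015 knockdown regions and 37398 control regions, 71413 of the 338017 peaks in all 12 lists. RKO is a human colorectal cancer cell line, labelled here as colon adenocarcinoma cells. The knockdown cells carried an shRNA against METTL3 (genotype METTL3 knockdown) and the control cells were labelled control with genotype WT. The labels name 2 MeRIP libraries per group, 4 of the 16 MeRIP libraries among 32 libraries, and the input libraries were not analysed here. The control vector, the type of shRNA construct and whether the cells were a clone or a pool are not stated in the labels. A region was called gained if no control peak overlapped it by 1 bp on the same strand, lost if it was a control region with no such knockdown peak, and kept otherwise. Since each group has 1 list, no replicate spread stands beside a difference, so no test and no p-value is given, and intervals are exact 95% binomial intervals that cover counting error only. The knockdown list may come from diverged cells, which was not tested. Of its regions 15327 were kept and 54.9% had no peak in RKO control. In the other colorectal line, LOVO, 26.9% of knockdown regions had no peak in that line's control. LOVO control shared 43.0% of the RKO knockdown regions. The RKO knockdown list also carried regions in 7 of 15 mesenchymal and 3 of 14 neural marker genes that had none in RKO control. In each set 1 gene had fewer regions in knockdown than in control. These were ZEB1 with 18 against 20 and ANK2 with 3 against 14. Other members had no region in either list.

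N6-methyladenosine (m6A) is a base modification placed on nascent RNA by a nuclear complex in which METTL3 is the catalytic subunit and METTL14 its RNA-binding partner. Further subunits such as VIRMA, ZC3H13 and RBM15 direct the complex along the transcript, reader proteins such as YTHDC1 bind the mark in the nucleus, and erasers such as FTO remove it. On chromatin-associated RNA, the RNA still attached to chromatin, the mark is known from introns, from transcripts of repeats such as LINE-1 and from regulatory RNAs as well as from messenger RNA. In MeRIP-seq, fragments bound by an m6A antibody are sequenced and called as peaks where they pile up. A peak therefore needs a transcript as well as a mark. A lost or gained mark and a lower or higher transcript level cannot be told apart here, and in bulk RNA fewer cells with a transcript and less transcript per cell cannot be told apart either.

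The scores of the peaks, which no header explains, ran over 3 to 79.6 in the knockdown list (median 8.41) and over 3 to 26.3 in the control list (median 5.19). On each strand the most frequent scores lay on a ladder of equal steps, 0.109 and 0.116 wide in the knockdown list and 0.0564 and 0.0588 wide in the control list. If the score is a fold over a genome-wide background with 1 added to both, these steps give a background of 8.17 and 7.62 reads in knockdown and of 16.7 and 15.998 reads in control, 0.489 and 0.476 times as many. A smaller background would mean fewer reads. Scores were therefore compared only within a list, and the part of such a possible depth difference in the results was not tested.

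Sequences are shown first for annotated starts that the regions covered, as examples of a gained, a lost and a kept region. Each is a RefSeq promoter window of GRCh38.p14, which runs over 250 bases before and 50 bases after the annotated start. It is read 5′ to 3′ on the gene's strand, and capitals mark the bases under an m6A region of the list named. A gene can have several annotated starts, and those shown for RGS6, CFAP299 and MSH6 lie inside the gene body. EGFR, the receptor of epidermal growth factor, had a gained region at chr7:55018837-55020587 with a score of 17.8 that covered 230 bases of the window at chr7:55018767-55019066 (plus strand, knockdown list). The region lay on the strand of EGFR and reached into the gene, and since it also touched the body of LOC105375284 it is not among the regions counted per gene below.
EGFR: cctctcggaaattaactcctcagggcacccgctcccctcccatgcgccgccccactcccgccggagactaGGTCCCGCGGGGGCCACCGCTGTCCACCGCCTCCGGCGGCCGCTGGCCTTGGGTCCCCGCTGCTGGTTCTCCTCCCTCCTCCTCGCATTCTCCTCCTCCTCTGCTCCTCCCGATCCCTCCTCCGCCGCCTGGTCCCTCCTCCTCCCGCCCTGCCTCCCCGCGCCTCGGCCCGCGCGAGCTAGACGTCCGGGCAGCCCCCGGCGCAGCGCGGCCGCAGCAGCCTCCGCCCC
RGS6, a regulator of G protein signalling, had a gained region at chr14:71932055-71932211 (score 5.23) in its window at chr14:71931921-71932220 on the plus strand.
RGS6: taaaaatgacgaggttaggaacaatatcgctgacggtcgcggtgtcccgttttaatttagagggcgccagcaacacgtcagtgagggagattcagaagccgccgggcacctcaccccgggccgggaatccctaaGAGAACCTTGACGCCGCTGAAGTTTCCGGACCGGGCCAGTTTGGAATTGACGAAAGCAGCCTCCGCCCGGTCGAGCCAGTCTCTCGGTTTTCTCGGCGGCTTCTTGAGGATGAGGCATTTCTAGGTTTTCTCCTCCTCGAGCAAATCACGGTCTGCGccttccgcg
CFAP299, a gene of cilia and flagella, had a lost region at chr4:80335613-80336896 (score 6.69) that covered 167 bases of the window at chr4:80335480-80335779 on the plus strand, in the control list.
CFAP299: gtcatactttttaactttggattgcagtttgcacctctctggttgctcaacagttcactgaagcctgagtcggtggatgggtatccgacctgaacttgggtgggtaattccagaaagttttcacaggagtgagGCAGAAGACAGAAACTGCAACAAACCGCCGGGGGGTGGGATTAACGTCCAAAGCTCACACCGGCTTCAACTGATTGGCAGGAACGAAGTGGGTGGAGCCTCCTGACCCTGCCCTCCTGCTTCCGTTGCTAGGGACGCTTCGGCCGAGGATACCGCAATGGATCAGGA
CDH2, the gene of N-cadherin, and MSH6, a mismatch repair gene, were added after their values were seen, as windows that regions covered whole. The CDH2 window lies at chr18:28177081-28177380 on the minus strand under a gained region with a score of 15.3.
CDH2: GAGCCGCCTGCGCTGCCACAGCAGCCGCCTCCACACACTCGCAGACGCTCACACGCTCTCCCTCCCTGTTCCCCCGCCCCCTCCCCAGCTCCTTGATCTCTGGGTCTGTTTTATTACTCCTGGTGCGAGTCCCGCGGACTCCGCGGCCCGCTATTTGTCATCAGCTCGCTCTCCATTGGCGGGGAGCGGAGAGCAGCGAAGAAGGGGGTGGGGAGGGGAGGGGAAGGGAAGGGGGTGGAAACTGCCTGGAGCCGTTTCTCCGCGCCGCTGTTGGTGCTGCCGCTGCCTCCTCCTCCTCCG
The MSH6 window, at chr2:47783352-47783651 on the plus strand, lay under regions of both lists and was kept, with a score of 6.21 in knockdown and 11.3 in control, each on its own list's scale.
MSH6: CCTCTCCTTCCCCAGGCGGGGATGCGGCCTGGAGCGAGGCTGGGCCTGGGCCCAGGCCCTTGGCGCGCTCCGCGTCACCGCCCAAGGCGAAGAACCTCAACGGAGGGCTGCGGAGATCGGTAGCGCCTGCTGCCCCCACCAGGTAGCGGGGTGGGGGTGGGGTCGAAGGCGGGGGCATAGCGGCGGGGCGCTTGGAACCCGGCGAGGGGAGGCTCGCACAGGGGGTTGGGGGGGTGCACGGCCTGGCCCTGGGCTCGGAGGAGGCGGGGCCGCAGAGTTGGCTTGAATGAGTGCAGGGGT

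Of 34961 such windows, 1971 (5.64%) lay under a knockdown region and 851 (2.43%) under a control region on the same strand. Both lists covered 569 of them, the knockdown list alone 1402 and the control list alone 282. The knockdown list thus reached into more annotated starts, although it held fewer peaks. The 5-base sequence GGACT, a core form of the m6A consensus, was on the transcribed strand in 30.6% of windows under knockdown regions and in 30.7% of those under control regions, against 25.3% of all windows. Counted on either strand, the shares were 48.2%, 48.5% and 44.1%. The CDH2 window holds GGACT and the windows of EGFR, RGS6, CFAP299 and MSH6 shown above do not, which says only that these letters are not in those windows.

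MicroRNA genes gave further examples. Of 1558 RefSeq hairpins, 35 lay under a knockdown region and 52 under a control region on the same strand, with 18 under both, 17 under knockdown only and 34 under control only. The examples below were chosen after their values were seen, as 1 hairpin of each kind that regions covered whole, and capitals mark the seed, bases 2 to 8. The hairpin of MIR9-2 (chr5:88666853-88666939, minus strand), a microRNA known from the nervous system, lay under a gained region with a score of 51.2.
hsa-miR-9-5p: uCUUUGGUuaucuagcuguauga
hsa-miR-9-3p: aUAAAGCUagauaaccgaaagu
MIR1182 (chr1:231019828-231019924, minus strand) lay under a lost region with a score of 7.71.
hsa-miR-1182: gAGGGUCUugggagggaugugac
MIR671 (chr7:151238421-151238538, plus strand) lay under kept regions, with a score of 11.7 in knockdown and 10.7 in control, each on its own list's scale.
hsa-miR-671-5p: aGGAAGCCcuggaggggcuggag

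The first question was how far the m6A regions of the knockdown list differed from those of control. Peak number was 9.05% lower in knockdown, a log2 ratio of -0.14. The bases covered were 14.5 Mb in knockdown against 17.0 Mb in control (14.6% lower, log2 ratio -0.23). The exchange of regions was larger than this difference in number. Of the knockdown regions 18688 were gained, or 54.9% (interval 54.4 to 55.5), and 15327 kept. Of the control regions 22458 were lost, or 60.1% (interval 59.6 to 60.5), and 14940 kept. By chromosome, the gained share ran from 46.1% on chromosome 17 to 61.7% on chromosome 20, and the lost share from 43.3% on chromosome 19 to 67.5% on chromosome 9, so the exchange was spread over the genome. Gained regions held 42.9% of the knockdown bases and lost regions 44.3% of the control bases.

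Most gained and lost regions were not small shifts of a peak. No control peak on the same strand lay within 10 kb of 69.7% of gained regions, and no knockdown peak within 10 kb of 62.7% of lost regions. A peak of the other list within 500 bp was found for 6.08% of gained and 5.86% of lost regions. Gained regions had a median width of 229.5 bp, against 390 bp for kept knockdown regions, and lost regions 248 bp, against 470 bp for kept control regions. Both were thus narrower, and both had lower scores, with a median of 7.41 for gained against 10.4 for kept knockdown regions and of 4.72 for lost against 6.25 for kept control regions.

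The lists differed at the upper end of the score. Regions were split into 10 equal bins of score within their list. In the lowest bin of knockdown scores 65.5% of regions were gained, in the second 70.2%, in the ninth 35.05% and in the highest 35.4%. In the control list 79.5% of the lowest bin and 25.0% of the highest bin were lost. Many of the best-scoring knockdown regions therefore had no counterpart in control, and the gained share was no lower in the highest bin than in the ninth. Over 10 bins of width the gained share ran from 79.9% of the narrowest to 28.7% of the widest knockdown regions, and the lost share from 81.9% to 21.5%. In the LOVO comparison, the other colorectal line, 26.9% of knockdown regions were gained and 37.8% of control regions lost, with 3.61% lost in the highest bin.

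**Figure D1:**
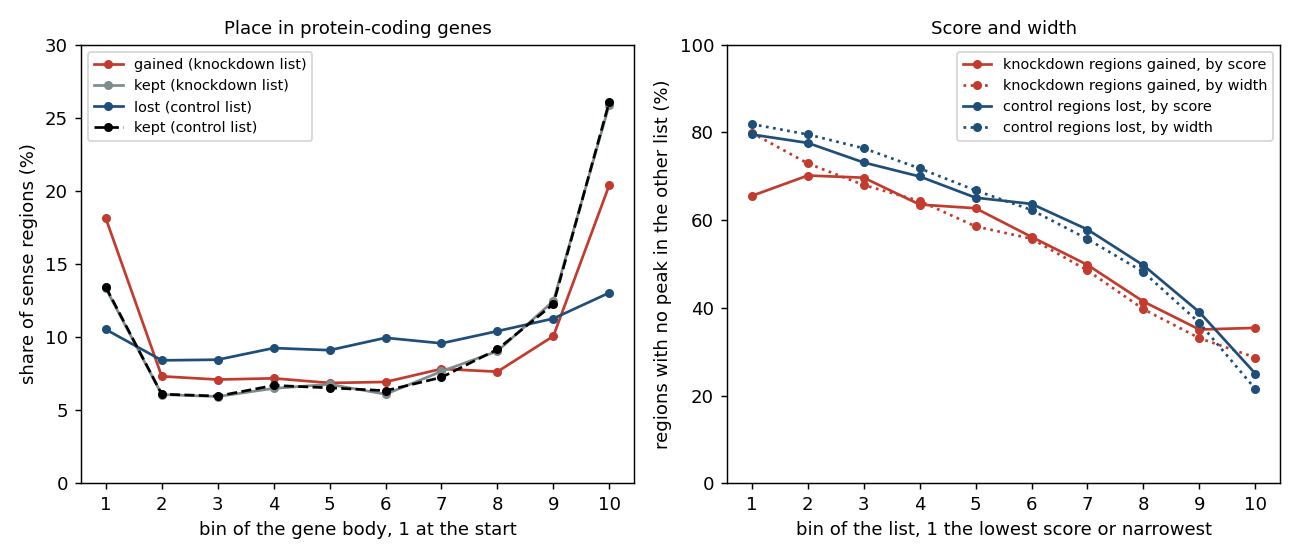
The left panel plots the share of sense regions of protein-coding genes (%) in 10 equal bins of the gene body, and the right panel the share of regions with no peak in the other list (%) in 10 bins of score and of width. Lost regions were spread more evenly over the gene body than kept ones, with 13.03% in the last bin against 26.1% of kept control regions, and the gained share stayed at 35.05% and 35.4% in the upper 2 bins of score.

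Gained and lost regions lay in different kinds of genes. Protein-coding gene bodies held 80.2% of knockdown and 88.4% of control peaks by midpoint, long non-coding RNA genes 7.04% and 4.25%, and the sequence between annotated genes 11.3% and 5.75%. Between genes 81.2% of knockdown regions were gained, in long non-coding RNA genes 75.2% and in protein-coding genes 49.5%. The lost share ran over a narrower range, at 66.5% between genes, 63.0% in long non-coding RNA genes and 59.4% in protein-coding genes. Regions between genes made up 16.7% of gained but 4.72% of kept knockdown regions, against 6.37% of lost and 4.82% of kept control regions.

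Gained regions lay antisense to genes more often than lost or kept regions. Among regions within a single protein-coding gene of known strand, 1991 of 9266 gained regions, 21.5% (interval 20.7 to 22.3), lay antisense to the gene, against 4.78% of kept knockdown regions. Lost and kept control regions were antisense in 4.83% and 4.78%. The gained antisense regions lay in 1137 genes. In long non-coding RNA genes 25.1% of gained and 12.3% of kept knockdown regions were antisense, against 14.9% of lost and 11.3% of kept control regions. The genes with most antisense knockdown regions were DRC11, a gene of the cilium's dynein regulatory complex, with 21 in knockdown and 0 in control, EGFR with 19 and 0, TRIM44 with 19 and 0, XRRA1 with 18 and 5 and PARP11 with 17 and 0. These genes were picked after their values were seen. Of all gained regions 630, 3.37%, lay over a control peak on the opposite strand. Overlap of gained regions with opposite-strand peaks of the knockdown list itself was not counted. Per the labels, libraries were made with a stranded kit. Whether annotated or unannotated antisense transcripts carry these regions, or incomplete strand separation at sense peaks gave them, was not tested.

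Within genes, the kept regions of both lists gathered towards the gene end, where m6A is known to be frequent near stop codons, and lost regions did so less. Of sense regions in protein-coding genes, 11.97% of gained and 17.5% of kept knockdown regions lay within 2 kb of the annotated gene end, against 6.91% of lost and 17.7% of kept control regions. Within 1 kb of the gene start lay 13.3% of gained and 10.03% of kept knockdown regions, against 4.51% of lost and 10.1% of kept control regions. Gained regions were thus more frequent at gene starts than kept ones, and lost regions less frequent at both ends. Seen from the place, 50.5% of knockdown regions at starts, 34.5% at ends and 44.2% in between were gained, and 39.99% of control regions at starts, 36.9% at ends and 64.6% in between were lost. The genes that held gained regions were long, with a median of 100 kb over regions against 57.8 kb for kept knockdown regions, as were those of lost regions, with 84.9 kb against 56.5 kb for kept control regions.

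Whole genes took part in the exchange. Of 1381 genes with at least 5 knockdown regions, 305 (22.1%) had 0 in control and are called filled, and of 2073 genes with at least 5 control regions, 262 (12.6%) had 0 in knockdown and are called emptied. Filled genes comprised 257 protein-coding and 44 long non-coding RNA genes and held 3073 regions, 16.4% of all gained regions. Emptied genes comprised 233 protein-coding and 22 long non-coding RNA genes and held 2100 regions, 9.35% of all lost regions. Filled genes had a median length of 158 kb, against 105 kb for all genes with 5 knockdown regions, and emptied genes 108 kb, against 99.9 kb. At the other end, all knockdown regions were kept in 147 of the 1381 genes and all control regions in 48 of the 2073. With only regions in the upper 50% of scores of their list, filled genes numbered 142 and emptied genes 60, where fewer regions were counted. The median gene had 50% of its knockdown regions gained, or 66.7% of its control regions lost.

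**Figure D2:**
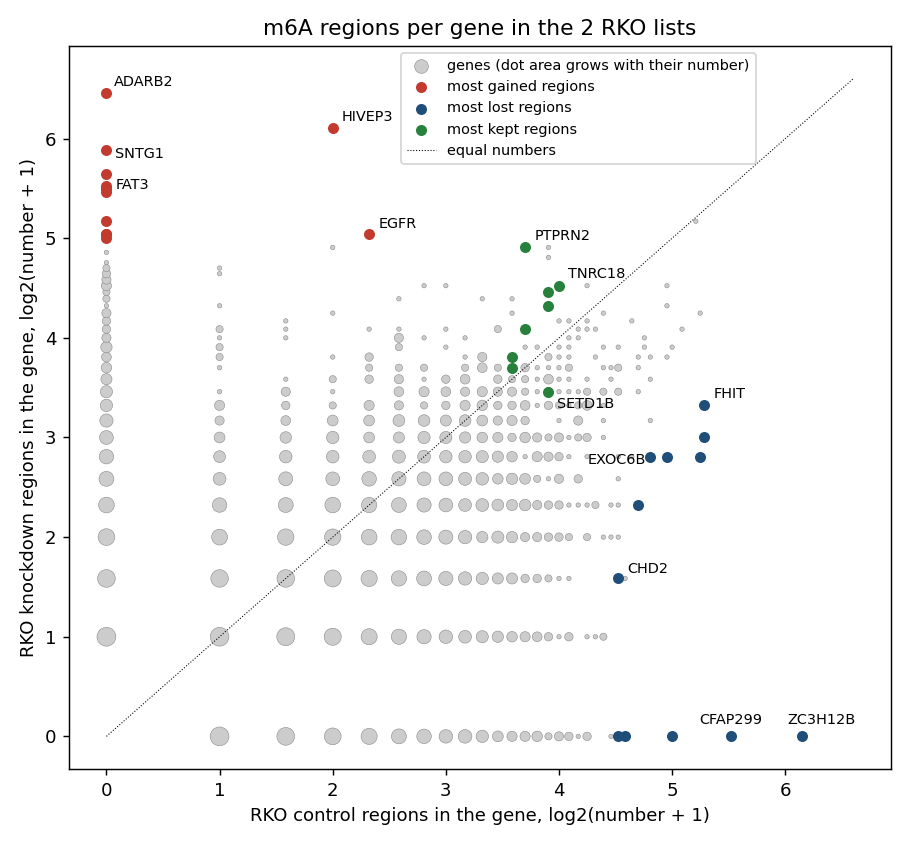
Each dot is the set of genes with a given number of m6A regions in the control list (x axis) and the knockdown list (y axis), both as log2 of the number plus 1, and coloured dots are the genes with most gained, most lost and most kept regions. Several genes with 30 or more knockdown regions, ADARB2 at the top, sit at 0 on the control axis, and CFAP299 and ZC3H12B sit at 0 on the knockdown axis.

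The genes with most gained regions carried long series of them where control had none or few. ADARB2, a brain-expressed relative of the RNA-editing enzymes (chr10:1177313-1737525, minus strand), had 87 regions in knockdown, all sense, and 0 in control. The scores of the 87 ran over 3.48 to 79.6 with a median of 8.24, and they included the highest-scoring peak of the knockdown list. HIVEP3, a zinc finger transcription factor gene, had 68 regions in knockdown and 3 in control, and SNTG1, of the syntrophin scaffold family, had 58 and 0. FAT3, an atypical cadherin, had 49 and 0, RGS6 45 and 0, and the long non-coding RNA gene LOC107985664 on chromosome X 44 and 0. The genes that followed had no control region at all. MAGI2, a scaffold of cell junctions, had 43 knockdown regions, DPP6, an auxiliary subunit of potassium channels, 35, the adhesion gene SDK1 32 and the cation channel gene TRPM3 32. NRG1, a ligand of ERBB receptors, had 31 and 0. ADARB2, SNTG1, FAT3, RGS6, LOC107985664 and TRPM3 had 0 regions in each of the other 10 lists of the series, and MAGI2 and DPP6 at most 1. HIVEP3 had 5 to 11 regions in each of these 10 lists. SDK1 had 12 and 13 and NRG1 15 and 17 in the SKOV3 control lists.

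EGFR differed from these in its layout. It had 32 regions in knockdown, 13 sense and 19 antisense, and 4 in control, all sense. Of the 4 control regions 3 were kept, near the middle and the end of the gene, and 29 of the knockdown regions were gained. The antisense regions had a median score of 9.75 and the sense regions of 8.17.

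The genes with most lost regions carried many regions in control and none or few in knockdown. ZC3H12B, a CCCH zinc finger gene of the regnase family (chrX:65034826-65507887, plus strand), had 0 regions in knockdown and 70 in control, all sense, with control scores of 3.05 to 12.4 and a median of 4.77. CFAP299 had 0 and 45, ARHGAP22, a GTPase-activating gene of RAC signalling, 0 and 31, SAMD12 0 and 23, and SCLT1, a centriole gene, 0 and 22. In the other genes with most lost regions, some stayed. FHIT, a hydrolase gene at a common fragile site, had 9 regions in knockdown and 38 in control, SCAPER 6 and 37, TRAPPC9, a vesicle trafficking gene, 7 and 38, EXOC6B, of the exocyst, 6 and 30, the centriole gene CNTRL 6 and 27, DLC1, a GTPase-activating gene, 4 and 25, and CHD2, a chromatin remodeller, 2 and 22. FHIT kept 7 of its 38 control regions and CHD2 kept 1 of 22. Most of these genes also had regions elsewhere: FHIT had 14 in LOVO knockdown and 25 in LOVO control, and ZC3H12B had 29 and 24 in the SKOV3 control lists.

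**Figure D3:**
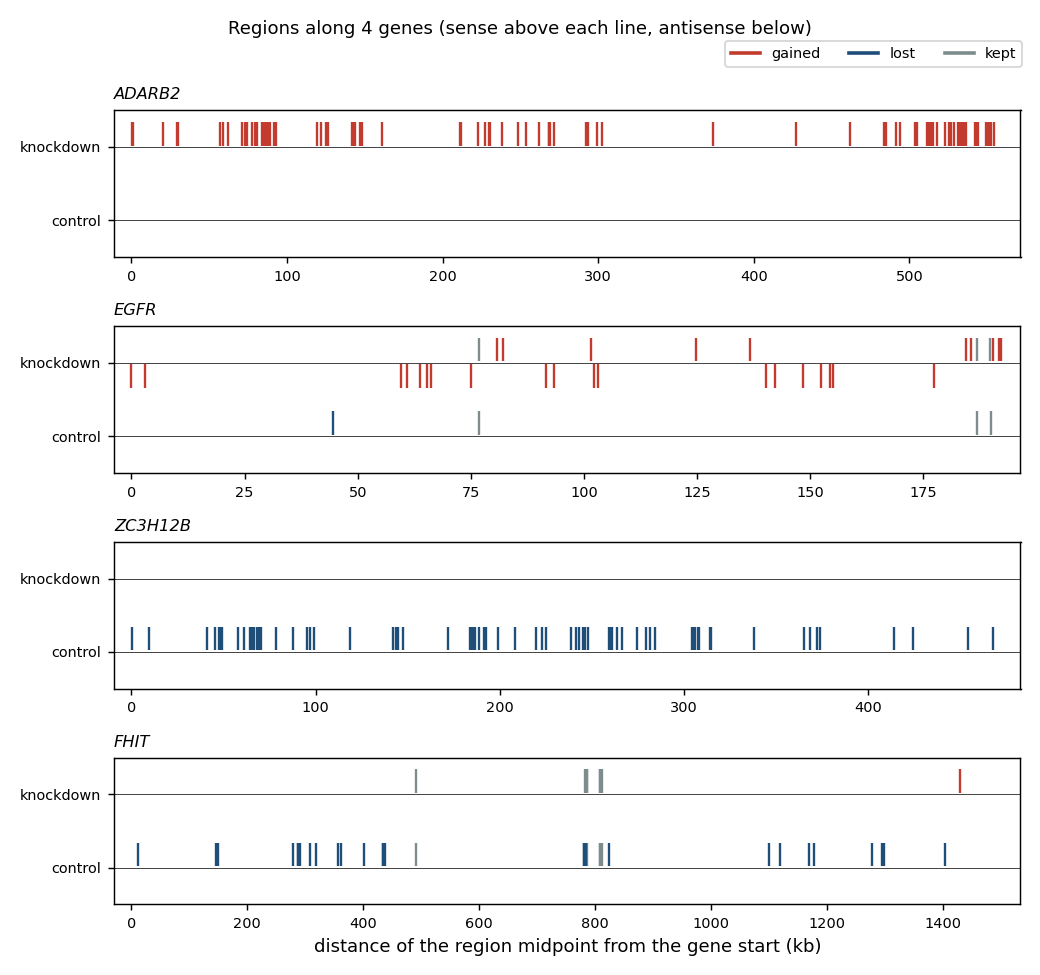
Regions of both lists are drawn along 4 genes by the distance of their midpoint from the gene start (kb), sense above each line and antisense below it. ADARB2 carried 87 gained regions and ZC3H12B 70 lost regions over most of their length, EGFR had antisense regions in knockdown only, and FHIT kept regions in the middle of the gene.

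Some genes kept most of their control regions, and they show that part of the map was common to both lists. TNRC18 kept all 15 of its control regions and had 22 in knockdown, and VPS13C, a lipid transfer gene, kept all 11 and had 12 in knockdown. CLIP2, a microtubule linker, kept 13 of 14, the myosin gene MYO9B 12 of 14 and SETD1B, a histone H3K4 methyltransferase gene, 12 of 14. PTPRN2 and VOPP1 each kept 10 of 12. Of the genes named here all but SETD1B had more regions in knockdown than in control, with 29 against 12 in PTPRN2, 16 against 12 in VOPP1 and 10 against 14 in SETD1B. They were picked for kept control regions, which leaves little room for fewer regions in knockdown.

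Gained and lost regions often came in runs along 1 strand, counted as successive regions with no kept region between them. Runs of 10 or more held 34.1% of gained regions (359 runs) and 22.3% of lost regions (336 runs). The longest gained run had 96 regions over 582 kb on the minus strand of chromosome 10, 87 of them in ADARB2. The next had 82 regions over 538 kb of chromosome X, 44 of them between annotated genes and 37 in LOC107985664. A run of 48 gained regions stood on the minus strand of chromosome 11 (1996984 to 2662747) and was picked after its values were seen. Of these, 18 lay in the body of KCNQ1, a potassium channel gene in an imprinted cluster, counted without regard to the gene's strand. Which transcript carried them was not tested. The longest lost run was the 70 regions of ZC3H12B, followed by 59 on chromosome 4 with 45 in CFAP299, and 44 lost regions stood on chromosome 5 at 97178357 to 98716020, 39 of them between genes. Outside runs of 10 or more, the gained share was 44.6% and the lost share 53.9%. Runs hold only gained or only lost regions by definition, so leaving them out could only lower these shares.

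METTL3 itself (chr14:21498138-21511340, minus strand) had 3 regions in knockdown and 2 in control. Both control regions were kept, and the third knockdown region, at chr14:21510888-21511304 with a score of 14.0, was gained at the 5′ end of the gene. Peaks do not measure the level of a transcript, and these counts say nothing of how far the knockdown went. Across the writer complex 39.3% of 28 knockdown regions were gained and 58.1% of 43 control regions lost. Over all genes these shares were 51.2% of 25862 regions and 60.6% of 31052 regions assigned to a single gene. ZC3H13 had 4 regions in knockdown and 18 in control, METTL16, a separate m6A methyltransferase, 1 and 5, VIRMA 5 and 8, and RBM15 6 and 2. RBM15 had 2 sense regions in each list, and its 4 gained regions were antisense. All 4 lay within the span of a kept sense region of the knockdown list, at chr1:110339434-110342332 with a score of 20.4. Of readers and erasers, YTHDC1 had 4 and 9, the RNA-binding reader IGF2BP3 9 and 6, and FTO 6 and 5.

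Genes that act on LINE-1 and nuclear RNA were listed because the study's title concerns LINE-1 RNA. In the nuclear exosome and LINE-1 silencing list 15.6% of 45 knockdown regions were gained and 53.4% of 73 control regions lost, and 11 of 18 genes with a region had fewer in knockdown, 1 more and 6 as many. ZFC3H1, of the exosome-targeting connection, had 6 regions in knockdown and 10 in control, MPHOSPH8 and TASOR of the HUSH silencing complex 6 and 8 and 6 and 7, SAFB2 4 and 10, SAFB 2 and 6 and the antiviral gene ZC3HAV1 2 and 7. Over all genes, 5597 of 11627 had fewer regions in knockdown and 4021 more. No direction of RNA or of LINE-1 can be read from these counts, since the annotation used here holds no repeats.

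DNA repair genes, which the title also concerns, had gained shares below that of all genes. In break signalling and end joining 2 of 40 knockdown regions (5.0%) were gained and 58.4% of 77 control regions lost, and 12 of 17 genes had fewer regions in knockdown. TP53BP1, which directs the choice of break repair, had 7 in knockdown and 12 in control, the checkpoint kinase gene ATR 7 and 10, PARP1, which senses breaks, 1 and 6, XRCC5, a Ku subunit, 1 and 5 and the ubiquitin ligase gene RNF8 2 and 7. In homologous recombination and the Fanconi pathway 31.5% of 54 knockdown regions were gained and 55.4% of 83 control regions lost. RAD51B, a recombination gene, had 13 and 30 regions, FANCC 3 and 7, BRIP1 2 and 6, XRCC3 8 and 5, and BRCA2 7 and 7 with 1 control region lost. All 8 knockdown regions of XRCC3 were antisense, and of its control regions 2 were sense and 3 antisense. In mismatch and excision repair 37.8% of 45 knockdown regions were gained and 50.9% of 53 control regions lost, with LIG1, the replicative DNA ligase gene, at 8 and 3, ERCC6 at 2 and 6, XPC at 6 and 7 and MSH6 at 4 and 5.

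Chromatin regulators had the largest numbers of control regions among the lists, and most had fewer regions in knockdown. Of histone methyltransferase and Polycomb genes 17 of 20 had fewer regions in knockdown and 1 more, with 17.3% of 104 knockdown regions gained and 55.2% of 183 control regions lost. EHMT1, an H3K9 methyltransferase gene, had 5 in knockdown and 22 in control, ASH1L 9 and 18, NSD2, an H3K36 methyltransferase gene, 7 and 16, NSD3 6 and 14, and KMT2C 7 and 14. Of acetyltransferases, demethylases and remodellers 27 of 32 had fewer in knockdown and 4 more, with 24.0% of 150 regions gained and 57.9% of 266 lost. CHD7 and CHD9 each had 12 and 22, KAT6A, an acetyltransferase gene, 6 and 16, SMARCA4, an ATPase of SWI/SNF, 3 and 11, and SMARCA2, its paralog, 0 and 6. KDM4B, a demethylase gene, went the other way with 13 and 4.

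Signalling and cell cycle genes were mixed. In the Wnt pathway 23.6% of 72 knockdown regions were gained and 51.4% of 111 control regions lost. The co-receptor LRP5 had 0 regions in knockdown and 11 in control, the scaffold AXIN1 3 and 12, the kinase GSK3B 4 and 10 and the receptor FZD6 1 and 7, while LRP6 had 13 and 14 and the tumour suppressor APC 8 and 6. Among receptor kinase, RAS and PI3K genes (49.4% gained, 54.8% lost) MET had 0 and 12, IGF1R 5 and 12 and EGFR, as above, 32 and 4. EGFR alone held 29 of the 40 gained regions of this list, and the median member had 0% gained. In the cell cycle (52.2% gained, 53.1% lost) the D-type cyclins differed among themselves, CCND1 with 0 and 7, CCND2 with 10 and 2 and CCND3, named to complete the family, with 2 and 2, both kept, and RB1 had 5 and 2. TGF-beta and SMAD genes had 49 regions in each list with 46.9% gained and 46.9% lost, and SMURF1, a ubiquitin ligase gene, 7 and 2. Of the SMURF1 regions, 6 in knockdown and 1 in control were antisense. In the p53 pathway 39.3% were gained and 44.8% lost. MYC and immediate-early genes had the lowest lost share of the 19 lists, with 33.9% of 59 control regions lost and 20.5% of 44 knockdown regions gained, while FOSL1 had 0 and 5 and ATF3 2 and 6.

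**Figure D4:**
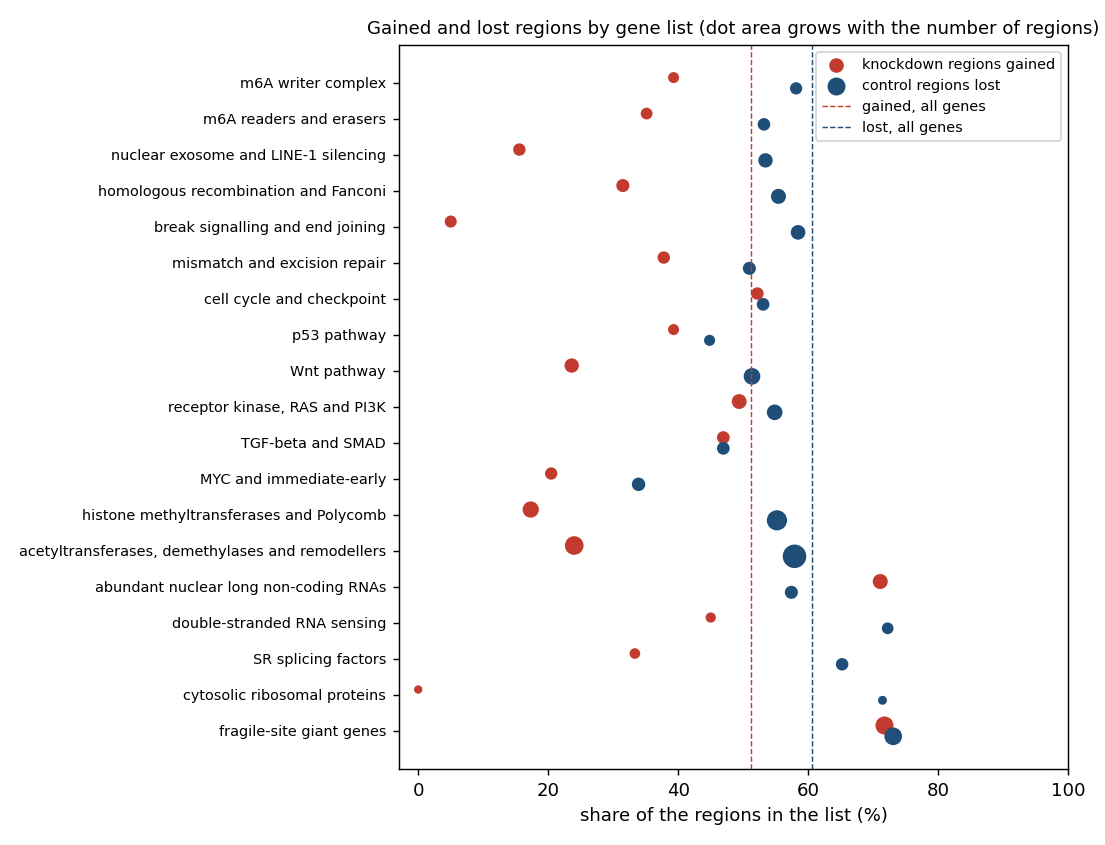
For each of 19 gene lists, the share of knockdown regions gained and of control regions lost (%) is plotted, with dashed lines at the shares over all genes, 51.2% gained and 60.6% lost. The gained share lay below that of all genes in 16 of the 19 lists and the lost share in 15, and long non-coding RNAs and fragile-site genes stood at the right in gained regions.

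Besides the cell cycle list, a gained share above that of all genes was found in the lists of nuclear long non-coding RNAs and of fragile-site genes. Abundant nuclear long non-coding RNAs had 83 knockdown and 54 control regions with 71.1% gained and 57.4% lost. SNHG14, an imprinted transcript, had 14 in knockdown and 0 in control, the imprinted MEG3 10 and 0, MIR100HG 10 and 0 and CASC15 8 and 0, whereas LINC-PINT had 2 and 12 and PVT1, next to MYC, 2 and 11. Fragile-site giant genes had 71.7% of 138 knockdown regions gained and 73.1% of 130 control regions lost, so regions differed in both directions. LRP1B had 22 and 0, NAALADL2 25 and 1, AUTS2 20 and 5, EXOC4 4 and 21, IMMP2L 10 and 22 and DLG2 6 and 13. Splicing factors of the SR family (33.3% gained, 65.2% lost) included SRRM2 with 3 and 15, SRRM1 with 1 and 10 and SON with 6 and 6, of which none was lost. Of the SRRM2 regions, 3 in knockdown and 5 in control were sense, and the other 10 in control were antisense. Genes that sense double-stranded RNA (45.0% gained, 72.2% lost) included ADAR, the RNA-editing enzyme, with 3 and 8, EIF2AK2, the kinase PKR, with 0 and 5, and OAS3 with 6 and 1. Cytosolic ribosomal protein genes had 2 and 7 regions in all.

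Markers of the labelled cell type were sparse in both lists and sparser in knockdown. Of 22 epithelial and intestinal markers 1 had a region in knockdown and 4 in control, with 6 and 12 regions summed. CDX2, a transcription factor of the intestine, had 0 regions in knockdown and 3 in control, and the keratins KRT8 and KRT18 0 and 2 each. Of the 22 markers 18 were at 0 in both lists. Of 15 mesenchymal markers 9 had a region in knockdown and 2 in control, with 71 and 21 regions summed. TNC, an extracellular matrix glycoprotein, had 17 and 0, CDH2 9 and 0, CDH11 8 and 0, the matrix gene SPARC 7 and 0 and the transcription factor ZEB2 6 and 0, while its paralog ZEB1 had 18 and 20.

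Other cell types were covered by smaller lists. Of 14 neural markers 7 had a region in knockdown and 4 in control, with 46 and 22 regions summed. MAP2, of neuronal microtubules, had 13 and 1, the adhesion gene NCAM1 8 and 0, the glutamate receptor gene GRIN2B 7 and 0, the tubulin TUBB3 6 and 2 and NES 8 and 5, while ANK2 had 3 and 14. GRIN2B also had 7 regions in LOVO knockdown and 11 in LOVO control. Of the TUBB3 regions, 3 in knockdown and 2 in control were sense, and the other 3 in knockdown were antisense. Blood markers had 7 regions in each list, endothelial markers 1 and 0, hepatic markers 0 and 1, melanocytic markers 0 and 4 and ovarian and Muellerian markers 1 and 11, all of these in MECOM. The marker counts differed between the lists alongside the gained and lost regions, and their part in the results was not tested.

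The other 10 lists of the series placed the RKO lists differently. The knockdown list shared 25.98% to 43.0% of its regions with each of them, the highest with LOVO control, and the control list 24.7% to 59.7%, again the highest with LOVO control. Gained regions were shared at 8.22% to 17.96% and kept knockdown regions at 47.6% to 78.8%. Lost regions were shared at 9.66% to 47.3% and kept control regions at 47.2% to 78.4%. No other list held 12371 gained regions (66.2%), against 1266 kept knockdown regions (8.26%), nor 7689 lost regions (34.2%), against 1298 kept control regions (8.69%). Gained regions were thus mostly found in the knockdown list alone, whereas most lost regions had a peak in some other list. By gene, 109 of the 305 filled genes had 0 regions in all 10 other lists, against 17 of the 262 emptied genes, and LOVO control had a region in 88 filled and 225 emptied genes. Of 5628 control regions present in all 10 other lists, 14.2% were lost.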

How the data were processed

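RKO chromatin-associated RNA was profiled by MeRIP-seq, and 1 BED list of m6A peaks per group was analysed. The submitters' processing notes name MACS2 2.2.7.1, HISAT2 2.1.0, Bowtie2 2.4.2 and Trim Galore 0.6.6 and the build hg38, without their roles. Each peak has a score deposited by the authors, whose scale no header explains. No score was under 3, peak names cite replicate 1, and 2150 knockdown and 1281 control peaks share a name with another, and no source says how replicate 2 entered. The highest numbers in the names, 42849 in knockdown and 54351 in control, exceed the peaks listed. Read totals are not stated.

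Regions, gained, lost and kept calls and intervals were computed in Python 3.11.15 with pandas 2.3.3, numpy 2.4.6 and scipy 1.17.1. On simulated lists the overlap code recovered every lost region. Gene bodies came from RefSeq (GRCh38.p14). A region on either strand was given to a gene where it touched no other, which holds for 76.0% of knockdown and 83.0% of control regions. Counts per gene thus hold sense and antisense regions together unless stated. Small RNA genes and untranscribed pseudogenes were left out. Gene strands came from the RefSeq promoter table and covered 79.2% of protein-coding genes. Classes used peak midpoints.

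The members and gene lists were chosen with earlier results of these data known. Named genes were the 12 genes with the highest number of gained regions and the 12 with the highest number of lost regions, where the lists differed at least 4 fold or 1 list had none, the 8 with most kept control regions among those that kept at least 80% of 5 or more, and list members with at least 5 regions in either list and a difference of at least 2 fold, or the 4 with most regions. A few genes that this rule names are not reported here. Alternatives changed the overlap, strand, distance, merging, list length, score threshold and gene assignment.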

Additional observations from a re-analysis of the deposited data

Results flagged for a closer look

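RKO and LOVO, the colorectal lines, differed in opposite directions in 3 shares of their lists. With 1 list per group, the difference between the lines was not tested.

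The share of peaks in protein-coding genes was 80.2% in RKO knockdown against 88.4% in RKO control, a difference of -8.18 percentage points, and 88.7% in LOVO knockdown against 86.2% in LOVO control, a difference of 2.42 points.

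The share of peaks between genes was 11.3% in RKO knockdown against 5.75% in RKO control, a difference of 5.53 points, and 5.64% in LOVO knockdown against 6.97% in LOVO control, a difference of -1.33 points.

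The antisense share of regions in protein-coding genes was 12.8% in RKO knockdown against 4.81% in RKO control, a difference of 8.03 points, and 4.67% in LOVO knockdown against 5.71% in LOVO control, a difference of -1.03 points.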

How the results depend on the processing

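No paired analysis was possible because each RKO group has 1 deposited list and no values per replicate, so leaving out a replicate was not possible either. The gained share (54.9%) and the lost share (60.1%) were 59.0% and 66.7% when 50% of a region had to be covered, 53.1% and 59.2% with overlap on either strand, 56.8% and 58.1% with equal numbers of peaks, and 51.6% and 56.5% with a peak within 500 bp counted as shared. They were 53.2% and 59.1% with peaks within 500 bp merged, and 43.6% and 47.1% for regions in the upper 50% of scores. Under alternatives chosen after seeing the data, they were 44.6% and 53.9% outside runs of 10 or more. Leaving out runs could only lower them, since runs hold no kept region. Also chosen after seeing the data, the gained share was 35.4% in the upper 10% of scores. The lost share was 14.2% of control regions found in all 10 other lists and 47.6% of those found in LOVO control. Peak number gave a log2 ratio of -0.14 and bases covered -0.23. Filled genes (305) and emptied genes (262) numbered 142 and 60 with the upper 50% of scores, where fewer regions are counted. They stayed within 1.5 times under equal numbers, merging, every gene body overlapped and, added after seeing the data, sense regions only, with 205 to 392 filled and 200 to 302 emptied genes. Covered share, either strand and the 500 bp distance do not alter the number of regions per gene and were not run for them. The protein-coding difference was -7.88 points with any overlap by 1 bp and -8.22 with equal numbers, against -8.18. Of 19 gene lists, 16 or 17 lay below the gained share of all genes and 15 below the lost share under both gene assignments. Depth may differ between the lists, and neither read counts nor input levels were used. A missing peak thus means only that none was called at the depth of that list.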
